A study of Mus musculus with 48 samples.

Results

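Loaded knee joints treated with small interfering RNA (siRNA) against Mmp13 were compared with loaded knee joints that received no treatment. The comparison holds 12 samples titled as treated with MMP13 siRNA (siMMP13) and 12 titled as untreated, 24 of the 48 samples in the series, chosen by their titles. All came from C57BL/6 mice, labelled as male and 3 months old. Both groups had been loaded: starting at 8 weeks of age, the knee was compressed for 500 cycles with 9 N on each occasion, at 5 occasions per week and over 4 weeks, as a noninvasive model of post-traumatic osteoarthritis (PTOA). In siMMP13 joints the siRNA was loaded into polymer nanoparticles conjugated to an antibody against type II collagen, the main collagen of cartilage. Untreated joints received neither siRNA nor carrier, so the effects of the siRNA and of its carrier cannot be told apart here. The other samples are loaded joints given the same carrier with a negative control siRNA (siNEG, n = 12) and healthy joints (n = 12).

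RNA was measured with a mouse inflammation panel of NanoString nCounter, which counts fluorescent barcodes on single RNA molecules without amplification. Each sample came from synovial tissue together with articular cartilage and subchondral bone, so a lower level can reflect fewer cells of a type or less RNA per cell, and these cannot be told apart. Mmp13 had no probe in the data used, so its knockdown was not measured, and none of the 6 cartilage and bone markers on the list used had a probe. Total gene counts were 61094 to 302377 in siMMP13 and 111645 to 229976 in untreated samples. No label ties a sample to an animal, so the p-values speak only of sample-to-sample spread, some of which may be technical.

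Macrophages and dendritic cells present peptides on MHC class II molecules and give T cells a second signal through costimulatory molecules such as CD86, while chemokines such as CCL19 draw T cells and dendritic cells together. TYROBP is an adaptor without ligand binding of its own, which passes on signals from partner receptors such as TREM2 in myeloid cells. Interleukin-1 signals through a receptor complex that needs the accessory protein encoded by Il1rap, and matrix-degrading enzymes of the metalloproteinase family are among the genes that interleukin-1 can induce in the joint.

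In 3 siMMP13 libraries, replicates 7, 8 and 11, the housekeeping genes used for scaling stood apart from the rest. In replicate 7, Tubb5 lay 1.95 log2 units above and Gusb 1.70 below the median of the 48 samples (log2 deviation -1.70). The largest deviation of any housekeeping gene was 1.57 in replicate 11 and 1.19 in replicate 8, against at most 0.68 in the other siMMP13 and 0.82 in the untreated libraries. These were also the siMMP13 libraries with the fewest counts, at 61094, 62095 and 89728. The genes that passed are given with and without them, as are other values that moved with them where stated, a choice made after the data were seen.

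**Figure D1:**
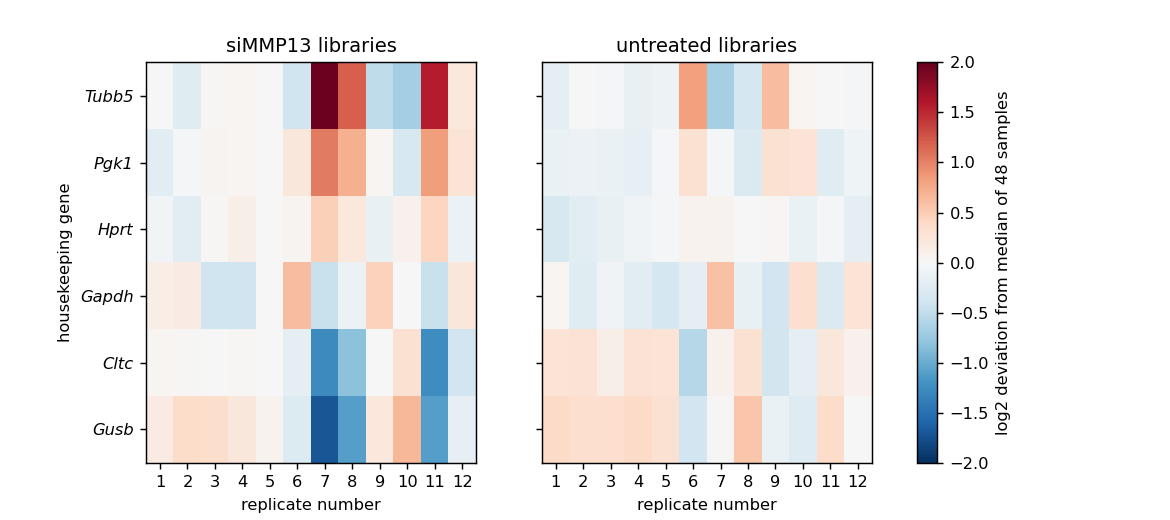
Deviation of each of the 6 housekeeping genes (rows) from its median over 48 samples, in log2 units, after scaling by their geometric mean, for siMMP13 (left) and untreated (right) libraries by replicate number. Replicates 7, 8 and 11 of siMMP13 show Tubb5 and Pgk1 high with Gusb and Cltc low.

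In all, 4 genes were higher and 3 lower in siMMP13 than in untreated joints. That is 7 of 196 genes tested (3.57%), with 4 higher (2.04%) and 3 lower (1.53%). The higher genes were Ccl19, Tyrobp, Cd86 and H2-Eb1, and the lower genes included Il1rap and Myc. No change among these exceeded 2-fold. At an unadjusted p under 0.05, 15 genes were higher and 18 lower, and the median log2 fold change over all genes tested was -0.0054. Without the 3 siMMP13 libraries and 1 healthy library with divergent housekeeping genes, 6 genes were called, 5 of them among the 7. The fitted changes moved upward, by a median of 0.12 log2 units over the genes tested.

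Ccl19 encodes a chemokine made by stromal and dendritic cells that acts through CCR7. Its normalized count was 137 at the lowest, 165 at the median and 440 at the highest in siMMP13 joints, against 81.9, 115 and 157 in untreated joints. All 12 siMMP13 samples lay above the untreated median, and 9 lay above the highest untreated sample. Of these 9, replicates 3, 5 and 9 did so narrowly (157.0, 157.4 and 158.0, against 156.6). The 9 also included the divergent replicates 7, 8 and 11. The mean was 208 ± 88.2 with siMMP13 and 116 ± 24.4 without treatment (SD, n = 12 each), a log2 fold change of 0.84 ± 0.17 SE (1.79-fold, adjusted p = 0.0037). The 2 highest siMMP13 values, 440 and 305, came from replicates 7 and 11. Without the divergent libraries the siMMP13 mean was 176 ± 38.1 (SD, n = 9), and the change was 0.60 (adjusted p = 0.020). The receptor gene Ccr7 did not pass (0.13 ± 0.14, adjusted p = 0.65).

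H2-Eb1 encodes the beta chain of an MHC class II molecule, which presents peptides to CD4 T cells. It lay at 979, 1269 and 1529 normalized counts (lowest, median, highest) in siMMP13 joints, against 722, 910 and 1286 in untreated joints. All 12 siMMP13 samples were above the untreated median, and 5 were above the highest untreated sample. The log2 fold change was 0.44 ± 0.09 SE (1.36-fold, adjusted p = 0.027). Its size changed little without the divergent libraries (0.43, adjusted p = 0.028), and the 3 divergent siMMP13 libraries themselves had 1529, 1144 and 1258 normalized counts. The call was lost when any one of 6 samples was left out (siMMP13 replicates 2, 7 and 12, untreated replicates 1, 2 and 4), with adjusted p-values up to 0.066.

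The region before the H2-Eb1 start is shown because MHC class II promoters carry a conserved Y box, bound by the factor NF-Y. It is from RefSeq, GRCm38.p6, plus strand, chr17:34305617-34305866. Capitals mark the core of the Y box, ATTGG, or its reverse complement CCAAT.
H2-Eb1: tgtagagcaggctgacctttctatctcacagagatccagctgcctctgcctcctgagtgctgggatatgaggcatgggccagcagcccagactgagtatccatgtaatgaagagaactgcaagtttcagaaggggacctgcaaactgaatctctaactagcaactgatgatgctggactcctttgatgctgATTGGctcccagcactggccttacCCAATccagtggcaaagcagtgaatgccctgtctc
The window held 2 matches, starting 59 and 35 bases before the annotated start. At least 1 match on either strand was found in 33.8% of all windows of that length.

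Cd86 encodes a costimulatory molecule of antigen-presenting cells. Its normalized counts were 86.3, 137 and 288 (lowest, median, highest) with siMMP13, against 77.6, 94.5 and 132 without treatment. In 6 of 12 siMMP13 samples it lay above the highest untreated sample. The log2 fold change was 0.60 ± 0.16 SE (1.52-fold, adjusted p = 0.010). The 2 highest values, 288 and 229, were those of replicates 7 and 11. Without the divergent libraries Cd86 was no longer called (0.37, adjusted p = 0.088), although 8 of the 9 remaining siMMP13 samples lay above the untreated median.

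Tyrobp showed the same dependence. It lay at 5484, 8588 and 19828 normalized counts (lowest, median, highest) in siMMP13 joints, against 4799, 6317 and 7796 in untreated joints. In 11 of 12 siMMP13 samples it was above the untreated median, and in 8 it was above every untreated sample. The log2 fold change was 0.63 ± 0.16 SE (1.54-fold, adjusted p = 0.0097). The 3 highest values belonged to the divergent libraries, with 19828 in replicate 7, 15105 in replicate 11 and 11871 in replicate 8. Without them the mean was 7983 ± 1408 (SD, n = 9), and Tyrobp was not called (0.32, adjusted p = 0.13). Trem2, the receptor that signals through it, did not pass, at 158 ± 47.6 with siMMP13 and 130 ± 43.9 without treatment (0.29 ± 0.18, adjusted p = 0.39).

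**Figure D2:**
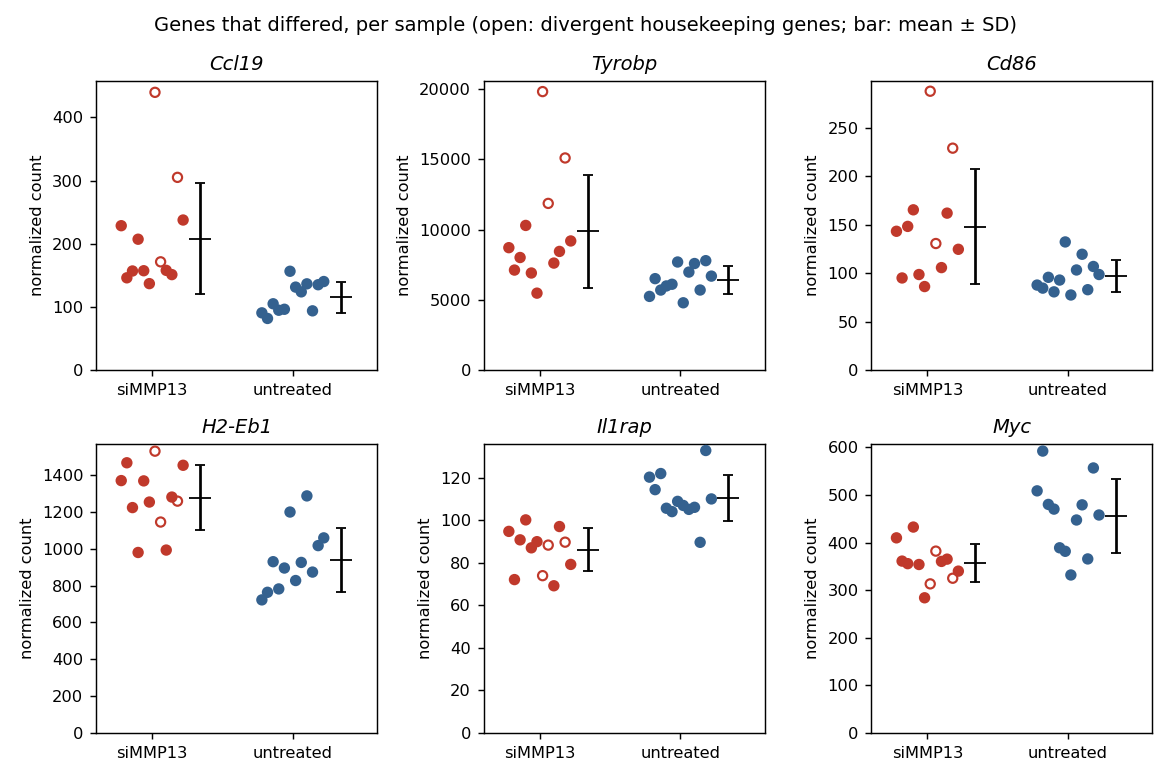
Normalized counts of 6 genes that passed, per sample, in siMMP13 (red, left) and untreated (blue, right) joints; open circles are the siMMP13 libraries with divergent housekeeping genes, and black bars are mean ± SD (n = 12 each). The highest siMMP13 values are open circles for Tyrobp (replicates 7, 11 and 8), Cd86 and Ccl19 (replicates 7 and 11) and H2-Eb1 (replicate 7). For Il1rap and Myc the open circles lie among the other siMMP13 samples.

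Il1rap and Myc were lower with siMMP13 and were called with and without the divergent libraries. Il1rap, the accessory receptor chain of interleukin-1, lay at 69.2, 89.0 and 100.2 normalized counts (lowest, median, highest) in siMMP13 joints, against 89.6, 108 and 133 in untreated joints. All 12 siMMP13 samples were below the untreated median, and 6 were below the lowest untreated sample. The log2 fold change was -0.36 ± 0.06 SE (adjusted p = 0.0077), and -0.35 without the divergent libraries (adjusted p = 0.020). Myc encodes a transcription factor of cell growth. It lay at 284, 358 and 433 with siMMP13, against 332, 464 and 592 without treatment, again with 12 of 12 samples below the untreated median. Its log2 fold change was -0.35 ± 0.09 SE (adjusted p = 0.0097), and -0.33 without the divergent libraries (adjusted p = 0.028). Both calls were lost when Tubb5 was left out of the scaling (Il1rap adjusted p = 0.067, Myc 0.072).

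Healthy and siNEG joints place these levels in the series. Median Ccl19 was 173 in siNEG and 136 in healthy joints, and siNEG joints also differed from the untreated samples used here (0.66, adjusted p = 0.035). The untreated Ccl19 median of 115 lay nearer to the healthy one than the siMMP13 median of 165 did. Ccl19 was called higher in siMMP13 than in healthy joints (0.63, adjusted p = 0.0026). It was not called between untreated and healthy joints (-0.21, adjusted p = 0.32). Median Tyrobp was 5520 in siNEG and 8631 in healthy joints, and median H2-Eb1 was 935 and 1312. For both, the siMMP13 medians of 8588 and 1269 lay nearer to the healthy ones than the untreated medians of 6317 and 910. Both were called lower in untreated than in healthy joints (-0.42, adjusted p = 0.022, and -0.42, adjusted p = 0.0050). Between siMMP13 and healthy joints neither was called (adjusted p = 0.26 and 0.90). For Il1rap the medians were 106 in siNEG and 84.3 in healthy joints. The siMMP13 median of 89.0 lay nearer to the healthy one than the untreated median of 108 did. Il1rap was called higher in untreated than in healthy joints (0.42, adjusted p = 6.0e-05), but not called between siMMP13 and healthy joints (0.06, adjusted p = 0.55). For Myc and Cd86 the untreated median lay nearer to the healthy one than the siMMP13 median did: median Myc was 416 in siNEG and 462 in healthy joints, against 358 in siMMP13 and 464 in untreated joints, and median Cd86 was 105 in siNEG and 88.7 in healthy joints, against 137 in siMMP13 and 94.5 in untreated joints. Against healthy joints, Myc was called lower in siMMP13 (-0.41, adjusted p = 0.00012) and Cd86 higher (0.75, adjusted p = 8.7e-05). Neither Myc nor Cd86 was called between untreated and healthy joints (adjusted p = 0.58 and 0.44). No difference between siNEG and untreated joints was called for Tyrobp (-0.12, adjusted p = 0.92), Il1rap (-0.05, adjusted p = 0.96), Myc (-0.07), Cd86 (0.16) or H2-Eb1 (0.11). Between siMMP13 and siNEG joints, Tyrobp (0.75, adjusted p = 0.0023), Il1rap (-0.31, adjusted p = 0.028) and Myc (-0.28, adjusted p = 0.043) were called. Ccl19 (0.18, adjusted p = 0.55), Cd86 (0.44, adjusted p = 0.086) and H2-Eb1 (0.33, adjusted p = 0.12) were not. The highest siMMP13 values of Tyrobp, Cd86 and Ccl19 came from divergent libraries. The comparisons with siNEG and with healthy joints were not repeated without these libraries. Because the comparisons share samples, these values stand side by side and are not independent of each other.

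Within each group, Tyrobp and Cd86 varied together across samples. Pearson's r of their log2 values was 0.91 over 12 siMMP13 samples (Spearman's coefficient 0.84, permutation test, p = 7e-05, adjusted 0.00056) and 0.83 over 12 untreated samples (Spearman 0.82, permutation p = 0.00078, adjusted 0.0021). It was 0.73 and 0.82 without the 2 samples farthest from the median of Tyrobp, and 0.85 in siMMP13 without the divergent libraries. For Tyrobp and Ccl19, r was 0.89 in siMMP13 (Spearman 0.85, permutation p = 0.00035, adjusted 0.0014) and 0.52 in untreated samples (Spearman 0.58, permutation p = 0.086, adjusted 0.14). Without the 2 farthest samples it was 0.61 in siMMP13 and 0.78 in untreated samples, and without the divergent libraries 0.76 in siMMP13. Tyrobp and H2-Eb1 had an r of 0.74 in untreated samples (Spearman 0.70, permutation p = 0.0057, adjusted 0.011) and 0.14 in siMMP13 (Spearman 0.063, permutation p = 0.67, adjusted 0.67), and that difference between groups was not tested. The siMMP13 value also turned sign, to -0.31 without the 2 farthest samples and -0.24 without the divergent libraries. Tyrobp and Trem2 gave -0.22 in siMMP13 (Spearman -0.15, permutation p = 0.47, adjusted 0.54) and -0.26 in untreated samples (Spearman -0.42, permutation p = 0.44, adjusted 0.54). Without the divergent libraries the siMMP13 value turned sign, to 0.59 over 9 samples, which was not tested. In all 8 relations were computed, and adjusted values are over these. Both genes of a pair share the scaling factor of their sample. Its part in these relations was not tested, and they were not repeated under another scaling.

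**Figure D3:**
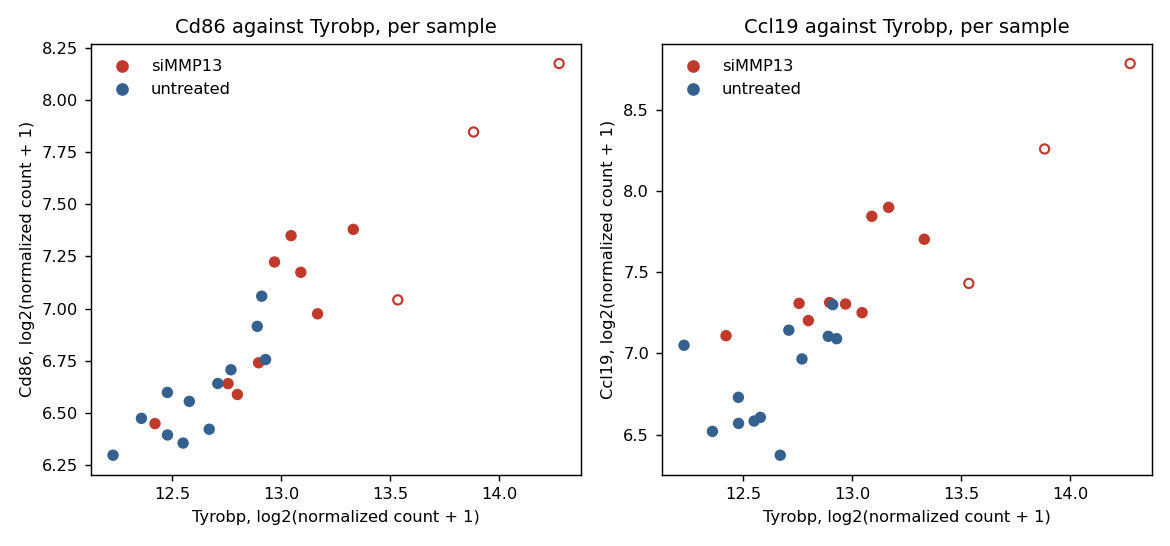
Cd86 (left) and Ccl19 (right) against Tyrobp, as log2(normalized count + 1), one point per sample, with siMMP13 in red and untreated in blue; open circles are the siMMP13 libraries with divergent housekeeping genes. The open circles of replicates 7 and 11 lie at the upper right end of both clouds.

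Among the lists of related genes, antigen presentation had the highest median, but with 3 tested members that median is the value of H2-Eb1 alone. Of its 3 tested members (of 5 listed) 2 were higher, Cd86 and H2-Eb1, and the third, Cd40, was not called (0.24 ± 0.26, adjusted p = 0.59). Cd86 was not called without the divergent libraries (adjusted p = 0.088). Beside this and the later list counts stand 4 of 196 genes higher (2.04%) and 3 lower (1.53%) over all genes tested. The list's median log2 fold change was 0.44, against -0.0054 over all genes tested. The other macrophage genes of the 16 tested on the myeloid list did not pass, and that list's median was 0.06, with 2 members higher. Arg1 was at 123 ± 108 with siMMP13 and 119 ± 73.5 without treatment (0.06 ± 0.56), and Chi3l3, which encodes a chitinase-like protein of alternatively activated macrophages, at 3740 ± 1757 with siMMP13 and 5387 ± 2092 without treatment (-0.53 ± 0.33, adjusted p = 0.23), and -0.25 without the divergent libraries. Retnla exceeded the negative controls in only 8 of 12 siMMP13 and 6 of 12 untreated samples (1.17 ± 0.44, adjusted p = 0.12).

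Chemokines other than Ccl19 did not pass. Of 13 CC chemokines and receptors tested, 1 was higher and none lower (median 0.22), and of 8 CXC chemokines and receptors none passed (median 0.07). Cxcl9, an interferon-induced chemokine, was at 442 ± 140 normalized counts with siMMP13 and 282 ± 130 without treatment (0.65 ± 0.23, adjusted p = 0.11), with 11 of 12 siMMP13 samples above the untreated median. Cxcl10 was at 560 ± 441 with siMMP13 and 301 ± 171 without treatment (0.90 ± 0.47, adjusted p = 0.29), a spread that exceeded the difference. Ccl11, which attracts eosinophils, and Ccl8 had log2 fold changes of 0.65 ± 0.32 and 0.57 ± 0.34. Cxcr2, a receptor of neutrophils, was at -0.39 ± 0.14 (adjusted p = 0.11). Among 20 interferon response genes tested, none passed and 2 were higher at an unadjusted p under 0.05, with a median of 0.11. Mx2 was at 0.55 ± 0.26 (adjusted p = 0.15).

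Of 8 interleukin-1 family genes tested, Il1rap was the only one that passed. Il1b, the cytokine itself, was at 241 ± 78.3 with siMMP13 and 234 ± 41.7 without treatment (0.04 ± 0.14), and the antagonist Il1rn at 0.21 ± 0.15 (adjusted p = 0.50). Il18rap, an accessory chain of the interleukin-18 receptor, was at -0.30 ± 0.12 (adjusted p = 0.23). Tnf (0.32 ± 0.15, adjusted p = 0.34), Il6 (0.27 ± 0.20, adjusted p = 0.61) and Ptgs2, the inducible cyclooxygenase (-0.29 ± 0.31, adjusted p = 0.65), did not pass, nor did Nos2, which was above the negative controls in 6 of 12 siMMP13 and 9 of 12 untreated samples.

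Neither of the 2 metalloproteinase genes with a probe passed. Mmp3, which encodes stromelysin-1, was at 132, 1571 and 3332 normalized counts (lowest, median, highest) with siMMP13, against 544, 1873 and 2868 without treatment. Its log2 fold change was -0.03 ± 0.43 SE (adjusted p = 0.99). Mmp9, carried by neutrophils, was at 3080 ± 1146 with siMMP13 and 2656 ± 773 without treatment (0.21 ± 0.22, adjusted p = 0.59).

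Signalling genes that did not pass had small fitted changes. The kinase genes Mapk8 (-0.24 ± 0.07, adjusted p = 0.10), Map3k7 (-0.27 ± 0.07, adjusted p = 0.11) and Mapk14 (-0.24 ± 0.09, adjusted p = 0.11) did not pass, although Mapk8 and Map3k7 were below the untreated median in 12 of 12 samples. With Cltc left out of the scaling Mapk8 (-0.30, adjusted p = 0.024) and Map3k7 (-0.34, adjusted p = 0.038) were called, and likewise with Gusb left out (adjusted p = 0.027 and 0.038). With Myl2 as a covariate Mapk8, Map3k7 and Mapk14 were called (-0.31, -0.36 and -0.33). The list of the MAP kinase cascade had a median of -0.15 over 16 tested genes. Of 9 AP-1, MYC and CREB factors tested, Myc was the one that passed (median -0.11), and Atf2 was at -0.16 ± 0.05 (adjusted p = 0.11). Stat3, which carries interleukin-6 signals, was at 914 ± 211 with siMMP13 and 1101 ± 90.7 without treatment (-0.27 ± 0.11, adjusted p = 0.11), and -0.13 without the divergent libraries. The NF-kB list had no gene that passed among 13 tested (median -0.09), with Tnfaip3, an inhibitor of the pathway, at 0.30 ± 0.11 (adjusted p = 0.11) and Relb, an NF-kB subunit, at 281 ± 60.8 and 230 ± 38.9 normalized counts in siMMP13 and untreated joints (0.29 ± 0.11, adjusted p = 0.12). Among 15 innate sensors none passed, with Tlr2 at 0.32 ± 0.09 (adjusted p = 0.11) and Tollip at -0.19 ± 0.09 (adjusted p = 0.16). Without the divergent libraries Tnfaip3 was at 0.18 and Tollip at -0.07.

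Among 14 complement genes tested none passed with all samples in the fit and scaling by the housekeeping genes. Cfd, which encodes factor D, a complement protease made by adipocytes, was at 340, 1627 and 4076 normalized counts (lowest, median, highest) in siMMP13 joints, against 315, 900 and 1374 in untreated joints (1.00 ± 0.35, adjusted p = 0.091). The 3 divergent libraries had low values (589, 824 and 340), and without them Cfd was called (1.29, adjusted p = 0.020). With all samples it was also called under TMM scaling (0.98, adjusted p = 0.029), with the size factors of DESeq2 (1.01, adjusted p = 0.028) and in the DESeq2 Wald test (adjusted p = 0.040). C3, the central component, was at 2315 ± 326 with siMMP13 and 1878 ± 226 without treatment (0.30 ± 0.08, adjusted p = 0.12), and was called under TMM scaling (0.37, adjusted p = 0.029), with DESeq2 size factors (0.39, adjusted p = 0.023) and in a fit of siMMP13 and untreated samples alone (adjusted p = 0.048). Of 8 growth factor genes tested, none passed (median -0.16), with Flt1 at -0.23 ± 0.12 (adjusted p = 0.37). None of 15 eicosanoid genes passed (median -0.0042), with Alox15, a lipoxygenase of macrophages and eosinophils, at 0.59 ± 0.29 (adjusted p = 0.23), and 0.15 without the divergent libraries. None of 11 oxidative stress genes passed (median -0.15), with the chaperone gene Hspb1 at 709 ± 573 with siMMP13 and 1082 ± 806 without treatment (-0.61 ± 0.53, adjusted p = 0.48), and -0.25 without the divergent libraries.

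**Figure D4:**
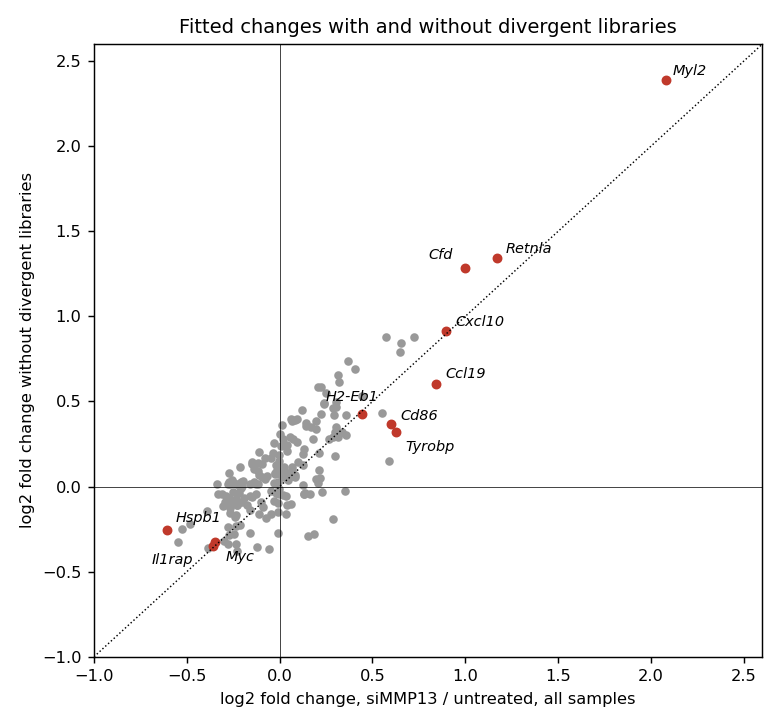
Log2 fold change of siMMP13 over untreated joints for each tested gene that is reported, fitted to all samples (horizontal) and without the 4 libraries with divergent housekeeping genes (vertical), with named genes in red and the dotted line at equality. Tyrobp, Ccl19 and Cd86 fall below the line and Cfd above it, while H2-Eb1, Il1rap and Myc lie close to it.

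Markers of other cell types did not pass in edgeR's test with all samples, scaling by the 6 housekeeping genes and no covariate. Myl2, the myosin light chain gene of slow and cardiac muscle, was at 22.1, 286 and 2198 normalized counts (lowest, median, highest) in siMMP13, against 15.2, 39.7 and 520 in untreated joints (2.08 ± 0.79, adjusted p = 0.10), and was called in the DESeq2 Wald test (2.07, adjusted p = 0.032). None of the 6 muscle genes tested passed, and the median log2 fold change of their list was -0.22. All but Myl2 were fitted lower: Mef2a (-0.55), Fxyd2 (-0.27), Mef2c (-0.26), Mef2d (-0.18) and Ppp1r12b (-0.11). The summed level of the 6 was 554 to 4270 in siMMP13 (median 1467) and 1053 to 3478 in untreated samples (median 1406). With Myl2 as a covariate, 18 genes were called, 8 higher and 10 lower, and all 7 calls were among them. Mef2a was called lower in that fit (-0.56, adjusted p = 0.049) and under other alternatives. Among these were TMM scaling (adjusted p = 0.011), DESeq2 size factors (0.014) and total-count scaling (0.0015). The granulocyte marker Alox15 was called higher with Myl2 as a covariate (0.88, adjusted p = 0.027), but its change was 0.15 without the divergent libraries and no covariate. With all samples and no covariate, Alox15 (0.59) and Mmp9 (0.21) were fitted higher, and the granulocyte markers Cxcr2 (-0.39) and Ccr3 (-0.16) lower. None of 4 granulocyte and none of 3 lymphocyte markers tested passed. Summed levels were taken over all listed markers with a probe, tested or not. Over 5 granulocyte markers they were 1530 to 5302 in siMMP13 and 1981 to 5174 in untreated samples. Over 4 lymphocyte markers they were 256 to 606 in siMMP13 and 237 to 421 in untreated samples. The part of these cell types in the results was not tested.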

How the data were processed

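Each deposited value is a whole-number count per probe, with no normalization recorded in the sources used here. The counts cover 268 probes: 248 endogenous genes, 6 housekeeping genes, 6 positive and 8 negative controls. No 2 samples held identical values. For scaling, counts were divided by a factor per sample, the geometric mean of its 6 housekeeping genes (Tubb5, Pgk1, Hprt, Gusb, Gapdh, Cltc). The 196 endogenous genes above 20 counts in 12 or more of 48 samples were tested by quasi-likelihood in edgeR 4.0.16 (R 4.3.3), with all 4 groups in 1 fit. Genes with a Benjamini-Hochberg adjusted p under 0.05 over all genes tested were called. Standard errors (SE) come from the variances of log2(normalized count + 1) in the 2 groups. The fold changes beside them and the p-values come from the edgeR fit, so a change and its SE do not give its p-value. The limit for lying above the negative controls was, per sample, their mean with 2 SD added. Deviations of same-numbered samples from their group means correlated at -0.81 to 0.53, so the numbers were not taken as pairs. In simulated counts over the 196 genes, the test recovered 65.2% of 1.5-fold and 88.0% of 2-fold changes, and 3.77% of its calls were false. The simulation drew each gene independently, with 1 spread per gene shared by all groups. The wider spread of siMMP13 and its divergent libraries were not simulated, so these rates need not hold for the data. Named genes were every called gene, the 8 uncalled genes with the smallest p in each direction, a fixed set, the 3 largest changes each way and up to 3 per list. The members, lists and rules were chosen with earlier results of these data known. A gene that this rule names is counted in the totals but not reported here. Alternatives used DESeq2 1.42.0 and limma 3.58.1. Promoter windows are from RefSeq tables (GRCm38.p6).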

Additional observations from a re-analysis of the deposited data

How the results depend on the processing

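Leaving out 1 sample at a time gave 6 to 8 calls in place of 7. With TMM, and likewise with the size factors of DESeq2, 13 genes were called (9 higher, 4 lower), with total-count scaling 10 (2 higher, 8 lower), with scaling without Tubb5 4, all higher, and with Myl2 as a covariate 18. The other alternatives called 6 to 10. Ccl19 kept its call in all 19 alternatives (0.60 to 0.97), Il1rap and Myc in 18 each. H2-Eb1 lost its call under total-count scaling (adjusted p = 0.058), without Cltc (0.073) or Gusb (0.090) in the scaling and with the replicate block (0.067), and Cd86 under total-count scaling (0.054). The replicate block called 6 genes, all among the 7, but the replicate numbers were not shown to pair samples. Small changes with no call turned sign. Mmp3 was 0.26 without the divergent libraries and 0.11 with Myl2 as a covariate. Il1b was -0.021 under total-count scaling, -0.042 without Cltc, -0.046 without Gusb, -0.0091 with negative controls subtracted, -0.00031 in limma with a pseudocount of 1 and -0.11 without the divergent libraries. Il6 was -0.089 with negative controls subtracted. Arg1 was -0.10 under total-count scaling, -0.52 with negative controls subtracted, -0.30 and -0.20 in limma with a pseudocount of 1 or 10, and -0.040 with the replicate block. Cd40 was -0.083 with negative controls subtracted, and Tgfbr1 0.026 without the divergent libraries. Ltb was 0.0075 under TMM scaling, 0.026 with DESeq2 size factors, 0.0059, 0.018 and 0.0080 without Hprt, Pgk1 or Tubb5, 0.13 without the divergent libraries and 0.011 with Myl2. With single samples left out, Mmp3 ran from -0.16 to 0.086, Il1b from -0.068 to 0.087, Arg1 from -0.20 to 0.23 and Ltb from -0.087 to 0.043. The cause was not tested. Samples with few counts limit the precision of genes near the negative controls.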

Other observations

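The spread between samples was wider with siMMP13. The SD of log2 values was higher in siMMP13 than in untreated samples for 173 of 196 genes tested, with a median SD of 0.51 in siMMP13 and 0.29 in untreated samples. Over the 9 siMMP13 samples without divergent housekeeping genes it was higher for 112 of 196 genes, with a median of 0.34. Further genes changed their call with the scaling. Under TMM scaling Tlr2 (0.40, adjusted p = 0.019), Cxcl9 (0.70), C3 (0.37), Relb (0.36) and Cfd (0.98) were called higher and Mef2a (-0.53) and Stat3 (-0.23) lower. Under total-count scaling Stat3 (-0.36), Gnaq (-0.39), Gnb1 (-0.23), Tollip (-0.27) and Mef2a (-0.65) were called lower. Mef2a, a transcription factor gene of muscle and other cells, was below the untreated median in 12 of 12 siMMP13 samples (-0.55 ± 0.23, adjusted p = 0.070), and its change was -0.33 without the divergent libraries.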
